A study of Mus musculus with 6 samples.

Results

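A set of 10 genes of the autophagy machinery, Atg3, Atg5, Atg7, Atg12, Becn1, Map1lc3a, Map1lc3b, Gabarap, Gabarapl2 and Sqstm1, was examined in RNA-Seq of fully-grown oocytes (FGOs). They were picked by name from the 24255 genes with deposited expression values, with no threshold on the values, and all 10 were listed above 0 in at least 1 library. The libraries came from germinal vesicle (GV)-stage FGOs of mouse ovaries, 3 of wild type (WT) and 3 of Lsm14b-KO females, with 20 oocytes in each. The Lsm14b-KO females were homozygous for Lsm14b tm1a(KOMP)Mbp, a reporter-tagged insertion allele, on the C57BL/6J background, and they carried the allele in all cells, not in oocytes alone. Females of both genotypes had received 5 IU of PMSG, a gonadotropin that drives follicle growth, 46 h before collection. Ages and the number of females behind each library are not given in the sources used here, so p-values measure only the spread between these libraries. Values are FPKM, in which fragments are set against transcript length and library size, so levels of different genes can be compared.

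Macroautophagy encloses cytoplasm in a double membrane and delivers it to lysosomes. A lipid kinase complex that contains Beclin 1 (Becn1) marks the membrane, and small ubiquitin-like proteins of the ATG8 family (the LC3 and GABARAP proteins) are then attached to it. ATG7 and ATG3 activate and transfer the ATG8 proteins, the ATG12-ATG5 conjugate directs the attachment, and receptors such as p62 (Sqstm1) bring in cargo. Oocytes at the GV stage have paused in meiotic prophase, make little new RNA and live on stored maternal mRNA, to which cytoplasmic RNA-binding proteins such as LSM14B attach.

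The targeted gene Lsm14b read 2.77, 3.98 and 1.72 FPKM in WT and 0, 0 and 0.102 FPKM in Lsm14b-KO oocytes, with every Lsm14b-KO value below every WT value. The 10 oocyte markers all reached 1 FPKM, with sums of 6778 to 8699 FPKM in WT and 6657 to 8560 FPKM in Lsm14b-KO libraries. Of 12 cumulus and granulosa cell markers, 8 were above 0, with sums of 9.89 to 13.5 FPKM in WT and 6.23 to 10.4 FPKM in Lsm14b-KO libraries, and Amh, Foxl2, Inhba and Cyp11a1 were at 0 throughout. None of the 7 red blood cell markers listed was above 0, and the leukocyte markers summed to at most 0.733 FPKM. Lsm14b-KO replicate 1 lay between the WT libraries and the other libraries of its genotype. On log2(FPKM + 1) its correlation across tested genes was 0.952 to 0.954 with the WT libraries, 0.917 with Lsm14b-KO replicate 2 and 0.960 with Lsm14b-KO replicate 3, while Lsm14b-KO replicates 2 and 3 correlated at 0.974. Taking WT replicate 1 as 1, the other WT libraries had relative depths of 1.14 and 1.04, and the Lsm14b-KO libraries 1.33, 1.96 and 2.19. The summed FPKM was 1141324 to 1244182 in WT, 1029728 in Lsm14b-KO replicate 1, and only 564671 and 676656 in the remaining pair. Results are also given without Lsm14b-KO replicate 1, without other libraries, and with every library scaled to the same sum (TPM scaling) where that changes a call or moves a value strongly.

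Genes that reached 1 FPKM in any library were compared between genotypes with limma on log2(FPKM + 1), a scale that understates changes of low genes, and a gene was called at a Benjamini-Hochberg adjusted p under 0.05 over all 6398 genes tested. Of the 10 autophagy genes 8 passed that minimum, and Sqstm1 was called, higher in Lsm14b-KO. In the background, 21.6% of tested genes were called, 6.38% higher and 15.2% lower in Lsm14b-KO. Of the 8 tested autophagy genes, 7 had a positive log2 fold change, with a median of 0.78 against -0.08 over all tested genes, and 4 had an unadjusted p under 0.05, as did 2518 of the 6398 tested genes. The Lsm14b-KO values lay wholly above the WT values in 3 of the 8, against 19.1% of tested genes, and wholly below in none of the 8, against 26.0%. Sqstm1, among the 3, reached 1 FPKM only in Lsm14b-KO libraries.

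**Figure D1:**
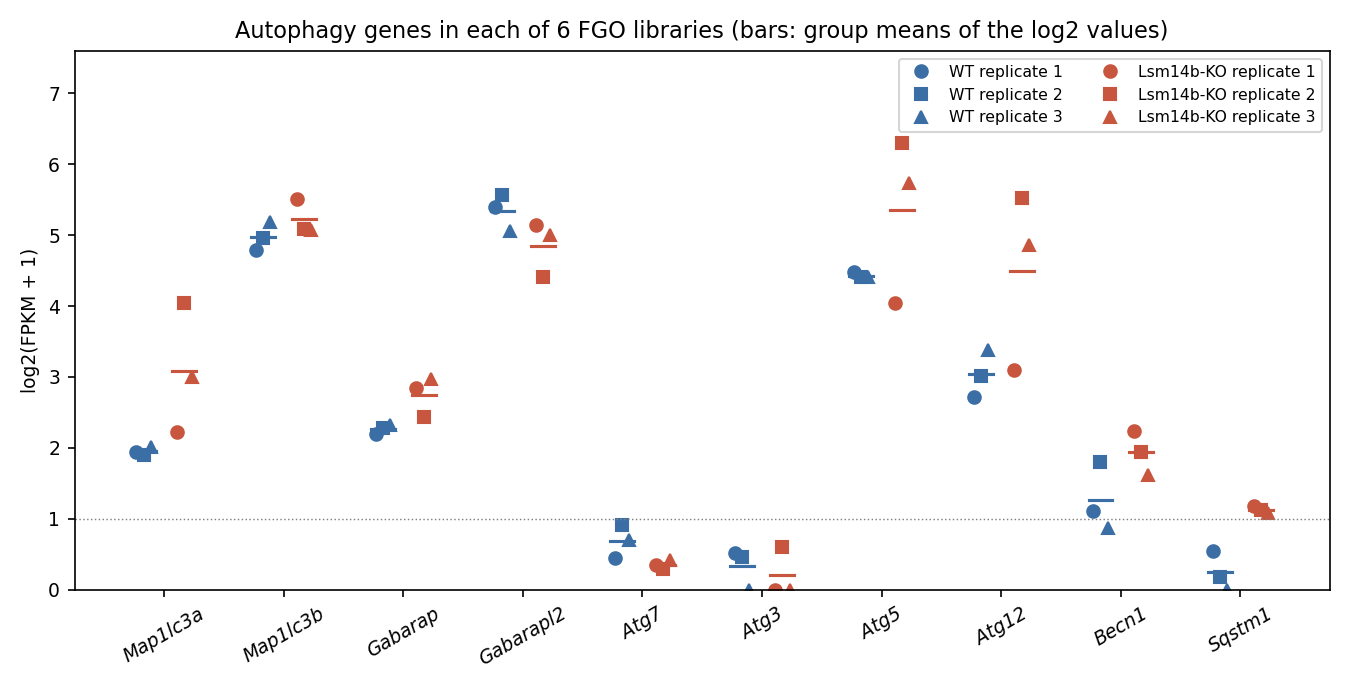
Level of each autophagy gene as log2(FPKM + 1), with WT libraries in blue, Lsm14b-KO libraries in red, a symbol per replicate and bars at the group means of the log2 values. The dotted line marks 1 FPKM, and Lsm14b-KO replicate 1 lies nearest to the WT libraries for Map1lc3a, Atg5 and Atg12.

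In WT FGOs the levels ran in a clear order for the upper genes. Gabarapl2 and Map1lc3b were highest, at 39.9 ± 7.01 and 30.7 ± 4.37 FPKM (SD, n = 3), and their ranges overlapped. Atg5 followed at 20.6 ± 0.607 FPKM, Atg12 at 7.35 ± 1.96 FPKM, Gabarap at 3.80 ± 0.216 FPKM, Map1lc3a at 2.87 ± 0.149 FPKM and Becn1 at 1.49 ± 0.879 FPKM (SD, n = 3), with no overlap between neighbours from Map1lc3b down to Becn1. Atg7, Atg3 and Sqstm1 stayed under 1 FPKM in every WT library and overlapped each other, and Atg7 overlapped Becn1. Gabarapl2 stood at percentile 83.8 of the tested genes in WT, and Sqstm1 at percentile 1.77. In Lsm14b-KO FGOs Atg5 had the highest mean, 48.4 ± 31.3 FPKM (SD, n = 3), but its range of 15.4 to 77.6 FPKM overlapped those of Map1lc3b, Gabarapl2 and Atg12. Below these came Map1lc3a, Gabarap, Becn1, Sqstm1, Atg7 and Atg3, and of the neighbours in that order Gabarap and Becn1, Becn1 and Sqstm1, and Sqstm1 and Atg7 did not overlap.

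The ATG8 genes encode the ubiquitin-like proteins that are coupled to the lipid of the forming membrane, and none of the 4 tested genes of this family was called, 3 having positive and 1 a negative log2 fold change. Map1lc3a, which encodes LC3A (chromosome 2, 155276297 to 155278073, plus strand, GRCm38/mm10), read 2.82, 2.74 and 3.03 FPKM in WT replicates 1 to 3 and 3.65, 15.5 and 7.01 FPKM in Lsm14b-KO replicates 1 to 3. All Lsm14b-KO values lay above all WT values, and Lsm14b-KO replicate 2 was by far the highest. Limma put the log2 fold change at 1.14 ± 0.42 (SE), adjusted p = 0.0854, so the difference was not called. It was 1.57 with an adjusted p of 0.00768 without Lsm14b-KO replicate 1, 0.66 with an adjusted p of 0.154 without Lsm14b-KO replicate 2, and 1.45 with an adjusted p of 0.0359 after correction for transcript length and GC content. Gabarap (chromosome 11, 69991143 to 69994951, plus strand) read 3.56, 3.86 and 3.98 FPKM in WT and 6.17, 4.41 and 6.86 FPKM in Lsm14b-KO. These groups did not overlap either, although Lsm14b-KO replicate 2 was close to the highest WT value. Limma put the log2 fold change at 0.49 ± 0.22 (SE), adjusted p = 0.139. It passed the threshold under TPM scaling (1.07, adjusted p = 0.034) and after the length and GC correction (0.89, adjusted p = 0.0181).

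Map1lc3b, which encodes LC3B, the protein most often followed as a marker of autophagosomes (chromosome 8, 121590361 to 121598760, plus strand), read 26.6, 30.2 and 35.3 FPKM in WT and 44.5, 33.0 and 32.8 FPKM in Lsm14b-KO. Only Lsm14b-KO replicate 1 was above the WT range. Limma put the log2 fold change at 0.25 ± 0.27 (SE), adjusted p = 0.509, and 0.92 with an adjusted p of 0.0413 under TPM scaling. Gabarapl2, which encodes GATE-16 (chromosome 8, 111940703 to 111953612, plus strand), read 41.0, 46.2 and 32.4 FPKM in WT and 34.3, 20.3 and 31.1 FPKM in Lsm14b-KO. The groups overlapped, and 2 of the 3 Lsm14b-KO values were below every WT value. Its log2 fold change of -0.49 ± 0.31 (SE, limma adjusted p = 0.261) was the only negative value among the tested autophagy genes, and it turned to 0.19 (adjusted p = 0.587) under TPM scaling, where the median over all tested genes moved to 0.40. Without Lsm14b-KO replicate 2 it was -0.27 (adjusted p = 0.506). Transcripts at least 95% identical over at least 200 nt lie elsewhere in the genome, 4 for Map1lc3b and 3 for Gabarapl2, and Map1lc3b overlaps Gm20388 on its own strand and Zcchc14 on the other, so the values of both genes are less certain. Gabarapl1, the fifth ATG8 gene listed, was at 0 except for 0.172 FPKM in Lsm14b-KO replicate 2.

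The makeup of the ATG8 transcripts was set out as shares of their summed FPKM, since a share within a library does not change with the scaling of that library. The sum itself was 74.0, 83.0 and 74.7 FPKM in WT and 88.6, 73.4 and 77.7 FPKM in Lsm14b-KO, with overlapping ranges. Gabarapl2 made up 55.4%, 55.7% and 43.3% of the sum in WT replicates 1 to 3 and 38.7%, 27.6% and 40.0% in Lsm14b-KO replicates 1 to 3. All Lsm14b-KO shares were below all WT shares. Map1lc3a went from 3.81%, 3.30% and 4.06% in WT to 4.12%, 21.2% and 9.01% in Lsm14b-KO, without overlap but with Lsm14b-KO replicate 1 next to the WT range. Gabarap held 4.81%, 4.65% and 5.33% in WT and 6.96%, 6.01% and 8.83% in Lsm14b-KO, again without overlap. Map1lc3b held 35.9%, 36.4% and 47.3% in WT and 50.2%, 45.0% and 42.2% in Lsm14b-KO, and these ranges overlapped. Shares in 1 library sum to 100% and so are not independent of each other, and they were not tested.

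**Figure D2:**
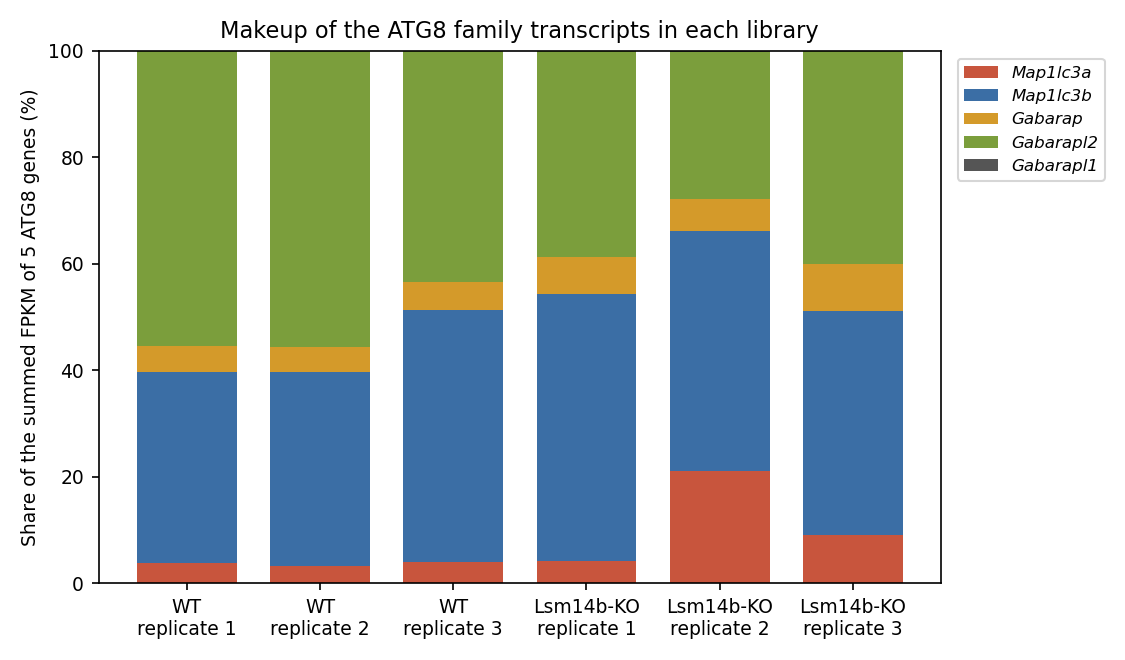
Stacked bars of the share (%) of each ATG8 gene in their summed FPKM, 1 bar per library. The Gabarapl2 share was 43.3% to 55.7% in WT and 27.6% to 40.0% in Lsm14b-KO libraries, and Map1lc3a reached 21.2% in Lsm14b-KO replicate 2.

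Among the genes that attach ATG8 proteins, Atg5 and Atg12 were uneven between the Lsm14b-KO libraries, and Atg7 and Atg3 were too low to be tested. Atg5 (chromosome 10, 44268358 to 44364291, plus strand), whose protein is the acceptor of ATG12, read 21.3, 20.2 and 20.2 FPKM in WT and 15.4, 77.6 and 52.3 FPKM in Lsm14b-KO. The WT values were nearly equal, Lsm14b-KO replicate 1 was below all of them and the other two Lsm14b-KO values were 2.55 and 3.77 times the WT mean. With all 6 libraries the log2 fold change was 0.93 ± 0.54 (SE, limma adjusted p = 0.225), without Lsm14b-KO replicate 1 it was 1.59 (adjusted p = 0.0022), and without Lsm14b-KO replicate 2 it was 0.46 (adjusted p = 0.525). The miRNA gene Mir1929 lies within Atg5 on the same strand and shares its deposited locus.

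Atg12, which encodes the ubiquitin-like protein joined to ATG5 (chromosome 18, 46730144 to 46741580, minus strand), read 5.55, 7.04 and 9.44 FPKM in WT and 7.58, 45.1 and 28.0 FPKM in Lsm14b-KO. Lsm14b-KO replicate 1 fell inside the WT range while the other two were above it. The log2 fold change of 1.46 was the highest of the tested autophagy genes (SE 0.57, limma adjusted p = 0.10), and it was 2.16 (adjusted p = 0.00199) without Lsm14b-KO replicate 1 and 0.94 (adjusted p = 0.245) without Lsm14b-KO replicate 2. That rank depended on the pseudocount, and at 0.1 Atg12 stood at 1.55, below Sqstm1 at 2.45. The ratio of Atg12 to Atg5 FPKM was 0.261, 0.349 and 0.467 in WT and 0.492, 0.582 and 0.535 in Lsm14b-KO. These ratios, which were not tested, did not overlap, with Lsm14b-KO replicate 1 close to the highest WT ratio. Without Lsm14b-KO replicate 1, 4 of the 8 autophagy genes were called, all higher (Map1lc3a, Atg5, Atg12 and Sqstm1), against a background that had risen to 18.0% of tested genes called higher and 27.3% called lower.

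Atg7, which encodes the activating enzyme of both conjugation reactions (chromosome 6, 114643097 to 114860614, plus strand), read 0.359, 0.881 and 0.627 FPKM in WT and 0.270, 0.221 and 0.331 FPKM in Lsm14b-KO. All Lsm14b-KO values were below all WT values, but no library reached the minimum for testing. Atg3, which encodes the enzyme that hands ATG8 proteins to the lipid (chromosome 16, 45158785 to 45188538, plus strand), read 0.432, 0.377 and 0 FPKM in WT and 0, 0.517 and 0 FPKM in Lsm14b-KO. A value of 0 in this table can stand for a gene that was not sampled, and no direction was read from Atg3.

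Becn1, which encodes the scaffold of the class III lipid kinase complex (chromosome 11, 101285952 to 101302286, minus strand), read 1.16, 2.49 and 0.827 FPKM in WT and 3.73, 2.85 and 2.08 FPKM in Lsm14b-KO. WT replicate 2 lay above the lowest Lsm14b-KO library, so the groups overlapped. Limma put the log2 fold change at 0.67 ± 0.29 (SE), adjusted p = 0.126, and it was 1.15 (adjusted p = 0.0401) under TPM scaling. Becn1 overlaps Cntd1 on the opposite strand and shares its deposited locus. The sources used here do not say whether the counting used strand. Without strand, reads from stretches that both genes cover could count for either, and how much of the Becn1 value this touches was not measured.

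**Figure D3:**
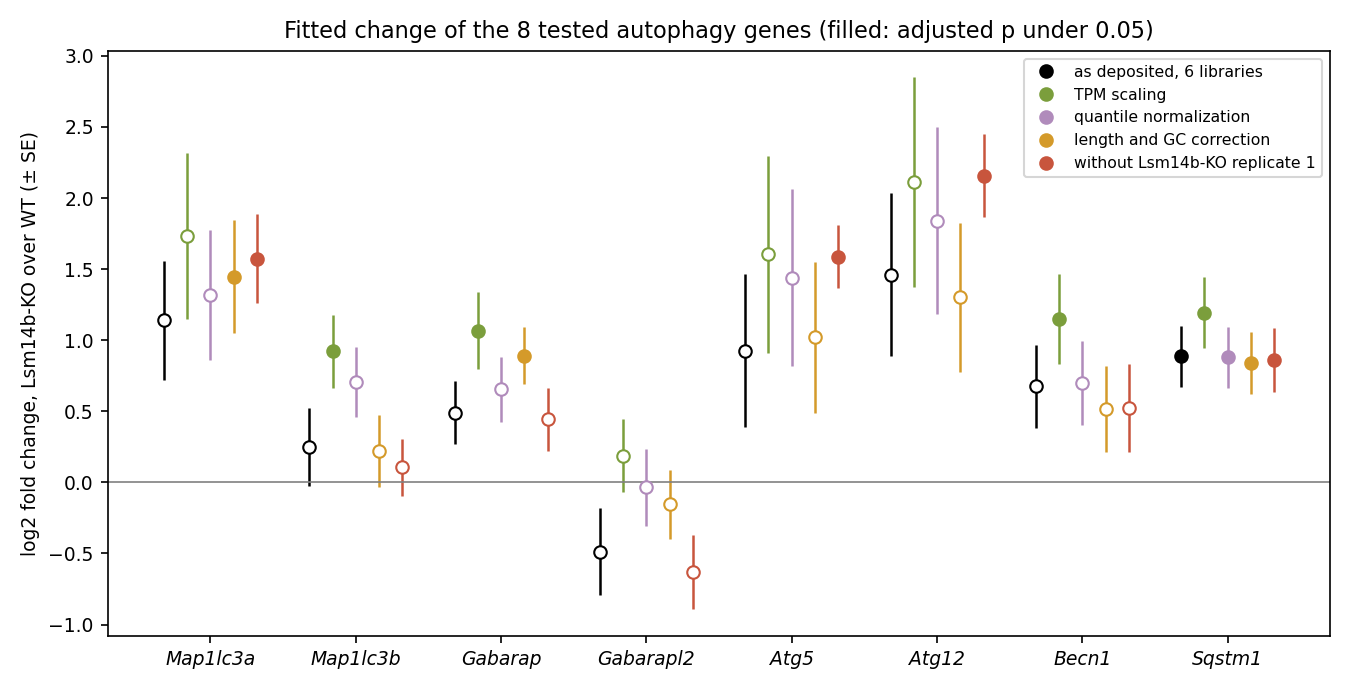
Log2 fold change of Lsm14b-KO over WT (± SE from limma) for the 8 tested autophagy genes, as deposited, under 3 other treatments of the values and without Lsm14b-KO replicate 1, with filled points where the adjusted p was under 0.05. Sqstm1 is filled in all 5 analyses shown, Atg5 and Atg12 only without Lsm14b-KO replicate 1, and Gabarapl2 changes sign under TPM scaling.

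Sqstm1 encodes p62, a receptor that binds ubiquitinated cargo and LC3, and it was the autophagy gene called in the comparison (chromosome 11, 50199366 to 50210827, minus strand, GRCm38/mm10). It read 0.458, 0.133 and 0 FPKM in WT replicates 1 to 3 and 1.26, 1.18 and 1.12 FPKM in Lsm14b-KO replicates 1 to 3. The Lsm14b-KO values were close to each other, Lsm14b-KO replicate 1 included, and all lay above the WT values. Limma gave a log2 fold change of 0.89 ± 0.21 (SE) at an adjusted p of 0.0256. The gene passed the 1 FPKM minimum only through the Lsm14b-KO libraries, and with every gene above 0 tested its adjusted p was 0.0487. The values were also multiplied by relative depth, which undoes the scaling to library size, and set against WT replicate 2 as 1 unit. WT replicates 1 to 3 then held 3.01, 1 and 0 units, and Lsm14b-KO replicates 1 to 3 held 11.0, 15.2 and 16.1. A deeper library holds more of these units at the same level, so they are not a comparison of levels. How many fragments make a unit is not known. The log2 fold change depended on the pseudocount, and was 1.33 at a pseudocount of 0.5 and 2.45 at 0.1 (adjusted p = 0.0283 and 0.0426). The difference lost its call without WT replicate 2 (adjusted p = 0.0862), WT replicate 3 (0.0731), Lsm14b-KO replicate 2 (0.0545) or Lsm14b-KO replicate 3 (0.0934). Sqstm1 overlaps Mrnip on the opposite strand, which unstranded counting would not separate. In pools of oocytes, a change in the number of oocytes that hold a transcript and a change in its amount per oocyte cannot be told apart.

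LSM14B binds RNA, so the transcripts were searched for CCTCTC, a hexamer taken from the study's work on LSM14B-bound mRNAs, on the sense strand of 1 GENCODE vM21 transcript per gene (2673 nt for Sqstm1). It occurs in 54.1% of 6319 transcripts of tested genes, 3 times in Sqstm1 and in Atg3, 1 time in Gabarap, Becn1 and Atg12, and not in the other 5 autophagy genes. The Sqstm1 matches are shown because this gene carries the call, as 30 nt windows with the hexamer in capitals. The first 2 lie in the coding sequence and the third in the 3′ untranslated region.
Sqstm1 transcript bases 556 to 561: cccctttggccaCCTCTCtgatagcttctc
Sqstm1 transcript bases 1117 to 1122: gctgattgagtcCCTCTCccagatgctgtc
Sqstm1 transcript bases 2041 to 2046: catcatcaaagtCCTCTCcggttgtaaaga
A match is a run of letters, and binding at these places was not measured here.

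The 250 bases before the RefSeq start (GRCm38.p6) were found for 7 of the 10 genes and searched on both strands for the E-box CACGTG, the core of the element bound by TFEB, a regulator of lysosomal and autophagy genes, and for the GC box GGGCGG. The E-box occurs in 3 of the 7, Atg3, Atg5 and Atg7, and in 6.02% of 32851 promoters. The Atg7 window, chr6:114670846-114671095, lies before an internal RefSeq start, inside the gene as placed above, and is not the region before its first exon. Most of the Gabarap window and smaller parts of the Map1lc3b, Atg3 and Sqstm1 windows also lie inside these genes as placed above. The GC box occurs in 5 of the 7 and in 32.7% of all promoters. The promoters of Atg5, which holds both motifs, and of Sqstm1, the called gene, are shown with both motifs in capitals, which do not overlap. The Atg5 promoter holds 1 E-box and 1 GC box, and that of Sqstm1 holds 3 GC boxes and no E-box.
Atg5 promoter, chr10:44268089-44268338, plus strand: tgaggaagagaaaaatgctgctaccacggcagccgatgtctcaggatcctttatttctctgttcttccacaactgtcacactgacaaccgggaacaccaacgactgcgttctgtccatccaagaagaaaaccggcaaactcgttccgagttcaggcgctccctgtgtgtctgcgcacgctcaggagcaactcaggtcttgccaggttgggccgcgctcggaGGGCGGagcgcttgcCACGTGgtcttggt
Sqstm1 promoter, chr11:50210821-50211070, minus strand: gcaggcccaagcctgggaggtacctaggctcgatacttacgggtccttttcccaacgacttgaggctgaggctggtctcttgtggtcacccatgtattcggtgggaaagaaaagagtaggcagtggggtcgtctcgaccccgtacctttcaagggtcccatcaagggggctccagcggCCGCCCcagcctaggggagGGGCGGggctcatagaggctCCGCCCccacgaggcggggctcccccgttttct
Tfeb itself was listed at 0 in all 6 libraries. Tfe3, another listed regulator of the pathway, named after its values were seen, was not called. It read 0.192, 0.840 and 0.558 FPKM in WT and 0.505, 1.18 and 1.10 FPKM in Lsm14b-KO.

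A list of 56 other genes of the pathway was read in the same fit. Of these, 53 were above 0 in at least 1 library (the other 3, named after their values were seen, were Atg16l2, Atg4d and Tfeb), 26 were tested, and 5 were called, 3 higher and 2 lower in Lsm14b-KO, beside the same background of 6.38% and 15.2%. Their median log2 fold change was 0.36, with 19 positive and 7 negative values. The Lsm14b-KO values lay wholly above WT in 10 and wholly below in 3 of the 26, where 19.1% and 26.0% of all tested genes did so. Of the 10, Atg4a, Pik3r4 and Optn, named after their values were seen, reached 1 FPKM only in Lsm14b-KO libraries. Among the genes with overlapping groups, so did Rb1cc1, Atg4b and Tfe3, with positive fold changes, and Pik3c3, with a negative one. These too were named after their values were seen. The entry of all these genes into the test thus rested on the Lsm14b-KO values.

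Of 7 conjugation and ATG4 protease genes, 4 were tested and 3 called, 2 higher and 1 lower, beside 21.6% of all tested genes called. Atg10, which encodes the enzyme that joins ATG12 to ATG5, read 20.3, 18.0 and 15.0 FPKM in WT and 4.07, 1.06 and 3.18 FPKM in Lsm14b-KO. Every Lsm14b-KO value, that of replicate 1 included, was far below the lowest WT value. Limma put the log2 fold change at -2.41 ± 0.35 (SE), adjusted p = 0.00484, and the call held in 15 of 15 alternative analyses. Atg16l1, whose protein joins the ATG12-ATG5 conjugate, read 0.804, 0.861 and 1.30 FPKM in WT and 2.15, 3.62 and 2.51 FPKM in Lsm14b-KO (log2 fold change 0.91 ± 0.22 SE, limma adjusted p = 0.0268). Atg4a, which encodes a protease that trims ATG8 proteins, read 0.547, 0.956 and 0.265 FPKM in WT and 1.44, 3.93 and 2.45 FPKM in Lsm14b-KO (log2 fold change 1.14 ± 0.30 SE, limma adjusted p = 0.0327). Like Sqstm1, Atg4a passed the 1 FPKM minimum only through the Lsm14b-KO libraries, and with every gene above 0 tested its adjusted p was 0.0811. The ratio of Atg5 to Atg10 FPKM was 1.05, 1.12 and 1.35 in WT and 3.78, 73.2 and 16.5 in Lsm14b-KO, without overlap, and was not tested.

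Of 9 tested cargo receptors, Ncoa4, the receptor for ferritin, was called higher, where 6.38% of all tested genes were. It read 4.64, 4.31 and 4.31 FPKM in WT and 7.45, 12.2 and 10.0 FPKM in Lsm14b-KO, with no overlap (log2 fold change 0.98 ± 0.24 SE, limma adjusted p = 0.0262). Of 5 tested genes for fusion with lysosomes, Vamp8, a SNARE protein of that step, was called lower, where 15.2% of all tested genes were. It had the highest WT level of the pathway genes examined, 473, 459 and 431 FPKM, and read 272, 77.0 and 122 FPKM in Lsm14b-KO (log2 fold change -1.73 ± 0.46 SE, limma adjusted p = 0.0342). Its transcript has 820 nt, and transcript length moved with the fold changes. The median log2 fold change was -0.62 over the 952 tested genes with transcripts under 1000 nt and 0.27 over the 2234 with transcripts over 3000 nt. After the length and GC correction Vamp8 was still called, but not under quantile normalization (log2 fold change -1.05, adjusted p = 0.0548). Atg16l1, Atg4a, Ncoa4 and Vamp8 each lost the call when any library other than Lsm14b-KO replicate 1 was left out, and when every gene above 0 was tested.

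**Figure D4:**
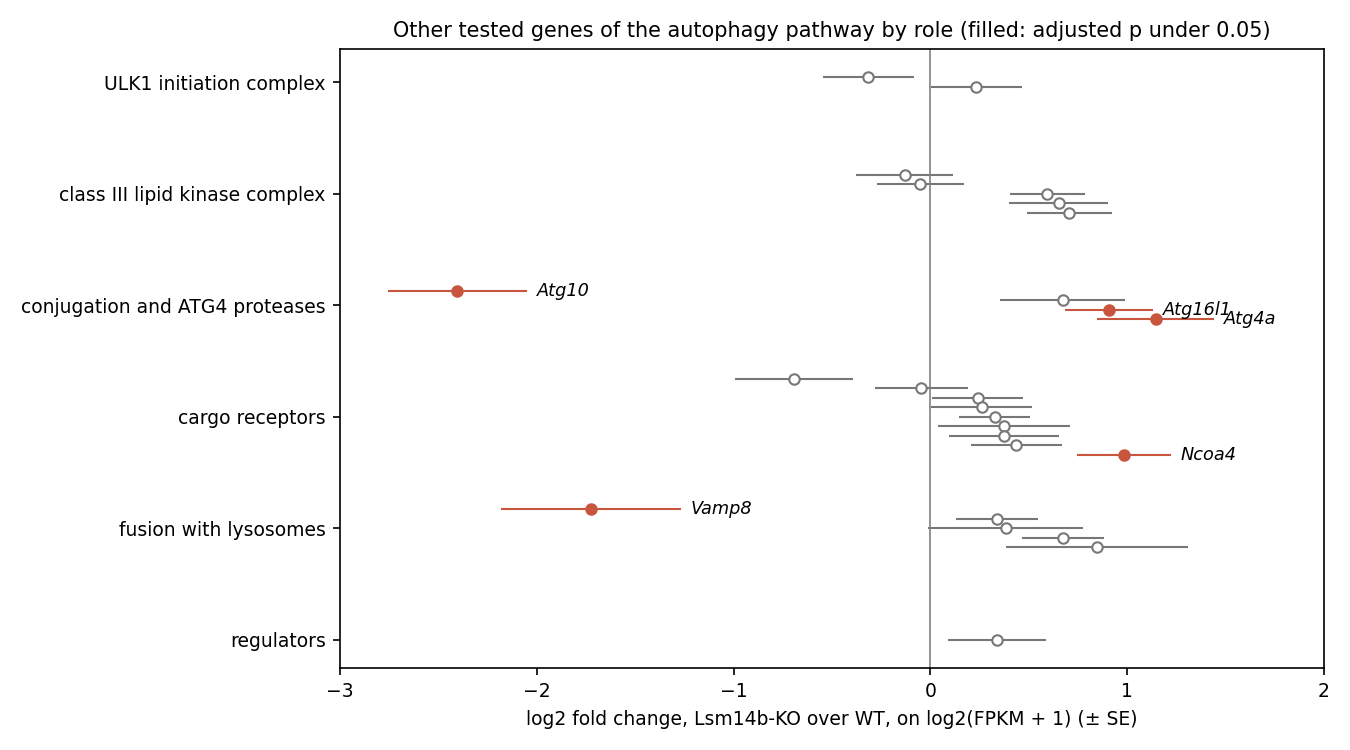
Log2 fold change of Lsm14b-KO over WT (± SE from limma) for the 26 other tested pathway genes, grouped by role, with genes at an adjusted p under 0.05 filled and named. Atg10 (-2.41) and Vamp8 (-1.73) lie to the left, and Atg16l1, Atg4a and Ncoa4 at 0.91 to 1.14.

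No gene was called in the other roles, beside 21.6% of all tested genes. In the ULK1 initiation complex 2 of 5 genes were tested, in the class III lipid kinase complex 5 of 7, and among the regulators 1 of 7, while none of the 8 genes for ATG9, ATG2 and WIPI proteins reached the minimum. These counts of 0 from limma stand beside unadjusted p-values under 0.05 for 3 of the 5 lipid kinase complex genes and for 0 of the tested ULK1 complex and regulator genes. Over all 6398 tested genes, 2518 had an unadjusted p under 0.05. These lipid kinase complex genes, named after their values were seen, were Atg14, Pik3r4 and Uvrag. All 3 lay wholly above WT, as did 19.1% of all tested genes. Their log2 fold changes were 0.71, 0.60 and 0.65, with adjusted p-values of 0.0519, 0.0583 and 0.097 in limma. Pik3r4, at 0.815, 0.906 and 0.792 FPKM in WT, passed the 1 FPKM minimum only through the Lsm14b-KO libraries. The most abundant uncalled genes were Bnip3l, Rab7 and Bnip3. Bnip3l, a mitophagy receptor, had 57.8 ± 1.85 FPKM in WT and 69.5 ± 4.0 FPKM in Lsm14b-KO (SD, n = 3), with an adjusted p of 0.456 in limma. Rab7, a GTPase of late endosomes, had 28.1 ± 4.49 and 40.1 ± 21.8 FPKM (SD, n = 3, adjusted p = 0.474 in limma). Bnip3, another mitophagy receptor, had 22.6 ± 2.91 and 14.0 ± 5.03 FPKM (SD, n = 3, adjusted p = 0.127 in limma). All Lsm14b-KO values lay above WT for Bnip3l and below WT for Bnip3, while Rab7 overlapped. Over all tested genes 19.1% lay wholly above and 26.0% wholly below. Without Lsm14b-KO replicate 1 Bnip3 was called lower.

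The scaling of the libraries bore on direction. With the values as deposited, 29.5% of all 1383 calls were higher in Lsm14b-KO, and this share was 63.2% under TPM scaling, 42.4% after quantile normalization and 44.8% after the length and GC correction. Under TPM scaling 4 of the 8 autophagy genes were called, all higher (Map1lc3b, Gabarap, Becn1 and Sqstm1), where 13.0% of all tested genes were called higher. After the length and GC correction 3 were called, all higher (Map1lc3a, Gabarap and Sqstm1), where 10.2% of all tested genes were. Of the other pathway genes, 9 were called under TPM scaling, 7 of them higher, with Atg14, Pik3r4, Bnip3l and Stx17 added to the 5 above. Without Lsm14b-KO replicate 1, 12 were called, 9 higher and 3 lower, where 18.0% of all tested genes were called higher and 27.3% lower.

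The genes whose levels most resembled those of Sqstm1 over the 6 libraries, among 2560 genes with a mean of at least 5 FPKM, were Pcbp2, Cdr2 and Gdap2, with Pearson r of 0.987, 0.983 and 0.975 on log2(FPKM + 1). Pcbp2, an RNA-binding protein gene, read 8.13, 6.82 and 6.44 FPKM in WT and 13.9, 12.2 and 11.8 FPKM in Lsm14b-KO. For Gabarapl2, with 2559 genes compared, they were Rps9, Aptx and Reep5, with r of 0.986, 0.982 and 0.978. Rps9, a ribosomal protein gene, read 217, 232 and 172 FPKM in WT and 200, 109 and 164 FPKM in Lsm14b-KO. The 6 libraries fall into 2 genotypes, so these coefficients are descriptions and carry no test.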

How the data were processed

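Titles and genotype labels gave the groups and replicate numbers. Per the labels, RNA was amplified by Smart-seq2. The labels name 2 library kits, and strand use and annotation are not given in the sources used here. The authors aligned reads to mm10 with TopHat2 2.0.13 and made the deposited FPKM values with Cufflinks 2.2.1. Their fold changes, p-values and q-values from Cuffdiff were not used. FPKM keeps no counts, so depth was estimated from steps between low values, in relative terms.

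Here log2(FPKM + 1) was computed, and genes that reached 1 FPKM in any library were fitted with limma 3.58.1 in R 4.3.3 (eBayes with an intensity trend, genotype as the only term, two-sided), with Benjamini-Hochberg adjustment. The fit was tested on simulated data. Alternatives covered pseudocount, minimum, scaling, length and GC content, variance model, replicate block and leaving out each library. Transcripts and coordinates came from GENCODE vM21 (GRCm38), promoters from RefSeq, and near-identical copies from blastn 2.17.0. The autophagy genes, lists and tests were chosen with earlier results of these data known. All 10 autophagy genes were named, with pathway genes past the threshold, the 3 most abundant others, Lsm14b, and 3 genes most like Sqstm1 and Gabarapl2.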

Additional observations from a re-analysis of the deposited data

How the results depend on the processing

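Over all tested genes 1383 were called, against 720 when every gene above 0 was tested, and 315 to 2898 when a library was left out, the highest without Lsm14b-KO replicate 1. Of the autophagy genes 1 was called, against 0 at a minimum of 5 FPKM, where Sqstm1 is not tested, 4 under TPM scaling, 3 after the length and GC correction and 0 to 4 when a library was left out. Of the other pathway genes 5 were called, against 1 with every gene above 0 tested, 3 at a minimum of 5 FPKM, 9 under TPM scaling and 1 to 12 when a library was left out. The log2 fold change of Gabarapl2 turned to 0.19 under TPM scaling, or -0.21 once the median of all tested genes was subtracted. Over 14 named genes and their alternatives, 167 of 205 values kept direction and side of the threshold, 29 lost the call, 8 gained it and 1 changed sign. What made values and calls move between these settings was not tested.

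The titles number the libraries 1 to 3 in each genotype. Deviations of same-numbered libraries correlated at 0.19, -0.13 and 0.018, and 3 of 6 libraries correlated best with their own number. Whether same-numbered libraries were collected together is not given, and so few values cannot tell. With the replicate block limma called 1244 genes, 1 autophagy gene and 5 other pathway genes. Depth limits what can be read of Atg3, Atg7 and Sqstm1.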
